A study of Arabidopsis thaliana with 21 samples.

Results

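The loci described here are the sites on the chromosome arms of Arabidopsis thaliana at which chromatin immunoprecipitation with an antibody against GFP gave a peak in gl2-5 seedlings, which carry no GFP-type fusion at all. They were selected on the gl2-5 peak list itself. Peaks of all 6 deposited lists on chromosomes 1 to 5 were merged into 6826 loci wherever they overlapped by at least 1 bp. Loci touching the regions around the 5 centromeres, or touching the peak clusters at the genes GL2 and PDF2, were dropped, which left 3954 arm loci. Of these, 500 held a gl2-5 peak and are called the gl2-5 arm loci below. The remaining 3454 are called the other arm loci. A further 177 loci with a gl2-5 peak lay in the dropped regions, of 677 in all.

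The series mapped chromatin contacts of GLABRA2 (GL2) in whole 10-day-old seedlings of the Columbia ecotype, by sequencing DNA precipitated with the anti-GFP antibody ab290, which also binds the yellow fluorescent protein EYFP. The fusion lines carried EYFP joined to wild-type GL2 (3 ChIP libraries), to gl2_dSTART (2), to gl2_dZip (2), to gl2_Amo (3) or to gl2_E375G R392M (3). The gl2-5 null mutant without a transgene (2 libraries) was the control. Each genotype also had 1 input library, and all lines, fusion lines included, were homozygous in gl2-5. According to the labels, rescue of the mutant phenotype was seen with the wild-type fusion and with none of the altered ones. The names of gl2_dSTART and gl2_dZip refer to the START domain and the leucine zipper of the protein, gl2_E375G R392M names its substitutions, and Amo is not explained in the labels.

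GL2 acts in the plant epidermis as a transcription factor of the class IV homeodomain leucine zipper family, and is known for promoting leaf hairs (trichomes) and for keeping root hairs off non-hair cells. Proteins of this class have a DNA-binding homeodomain, a leucine zipper through which they pair, and a START domain of the kind that binds lipids. In ChIP, DNA can be recovered without the targeted protein, because the antibody or the matrix binds other chromatin or because open, abundant or hard-to-align DNA is over-represented. A line without the tagged protein is used to measure such background.

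Each list gives, for every peak, the authors' tag count, score, fold over the local background and false discovery rate (FDR). The score restates the caller's p-value on a log10 scale and is higher for a smaller p, and the caller kept at most 1 tag at each position. Positions are those of the lists, on the TAIR10 build. The tag counts, scores, folds and FDRs are the authors' own, and they describe and rank peaks within one list. Replicate libraries were merged before peaks were called, so each genotype has 1 list and no spread between replicates. No difference below was tested. Bracketed ranges are 95% Wilson intervals, which cover counting error only. The gl2-5 list was called from the fewest kept ChIP tags, 227071, against 352707 in GL2, 297665 in gl2_dSTART, 1248287 in gl2_dZip, 538666 in gl2_Amo and 372864 in gl2_E375G R392M. A locus absent from a list was therefore below the caller's threshold at that depth, and was not shown to be free of signal.

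The gl2-5 peaks that chose the loci were mostly small. They held a median of 6 tags, with quartiles of 5 and 12 and a highest count of 3951. A count of 5, the lowest in the list, has a 95% Poisson interval of 1.62 to 11.7, and 186 of the 500 peaks held exactly 5. Their median length was 94.5 bp, from 58 to 9530 bp, and 1 peak was over 1 kb. Their fold ran from 4.00 to 509.6 with a median of 35.0, and their score from 50.21 to 1105.91 with a median of 94.7. The FDR was 5% or less at 7 of them, and 229 had a score of 100 or more. These values describe the selection and support nothing beyond it. At the edges of the dropped regions, the nearest locus kept lay 974 bp outside (chromosome 3, 16000974 to 16001048), with 6 tags and a fold of 63.7. The nearest locus dropped (chromosome 2, 5999962 to 6000031) had 5 tags and a fold of 34.91. Neither was in a fusion list. Within 0.5 Mb of an edge lay 27 kept and 52 dropped loci with a gl2-5 peak.

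The number of fusion lists that also held a locus was not used in the selection, and by it the 500 loci differed widely. No fusion list held 218 of them, 73 were in 1 fusion list, 25 in 2, 75 in 3, 68 in 4 and 41 in all 5. Thus 43.6% stood alone in the control, whereas 184, or 36.8% (32.7 to 41.1), recurred in 3 or more fusion lists. The 98 in 1 or 2 fusion lists made up 19.6%. Every fusion list also had arm loci found in no other list. They numbered 306 of 603 in GL2, 931 of 1153 in gl2_dSTART and 265 of 369 in gl2_dZip. In gl2_Amo they were 1336 of 1662 and in gl2_E375G R392M 435 of 763. Each of these is a larger part than the 43.6% of gl2-5. Over all arm loci, 6.25% were in 3 or more fusion lists and 1.19% in all 5. Of the other arm loci, 63 of 3454, or 1.82% (1.43 to 2.33), were in 3 or more fusion lists and 6 were in all 5. A locus without a gl2-5 peak is counted only if it is in at least 1 fusion list, and a gl2-5 arm locus needs none. Among the 282 gl2-5 arm loci in at least 1 fusion list, 65.2% (59.5 to 70.6) were in 3 or more. Recurrence of this kind was not particular to gl2-5. Of the GL2 arm loci, 52 were in 1 of the other 5 lists, 47 in 2, 85 in 3, 72 in 4 and 41 in 5. For gl2_E375G R392M these counts were 72, 57, 86, 72 and 41.

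Read from the fusion side, the more fusion lists shared an arm locus, the more often the null mutant had a peak there too. Of arm loci in exactly 1 fusion list, 73 of 3346, or 2.18% (1.74 to 2.73), held a gl2-5 peak. Of those in 2 fusion lists, 17.5% (12.1 to 24.5) did, of those in 3, 64.1% (55.1 to 72.2), of those in 4, 81.9% (72.3 to 88.7), and of those in 5, 87.2% (74.8 to 94.0). Over 3 or more fusion lists together it was 184 of 247, or 74.5% (68.7 to 79.5). Most arm sites shared by 3 or more EYFP fusions were thus also listed in seedlings with no fusion.

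**Figure D1:**
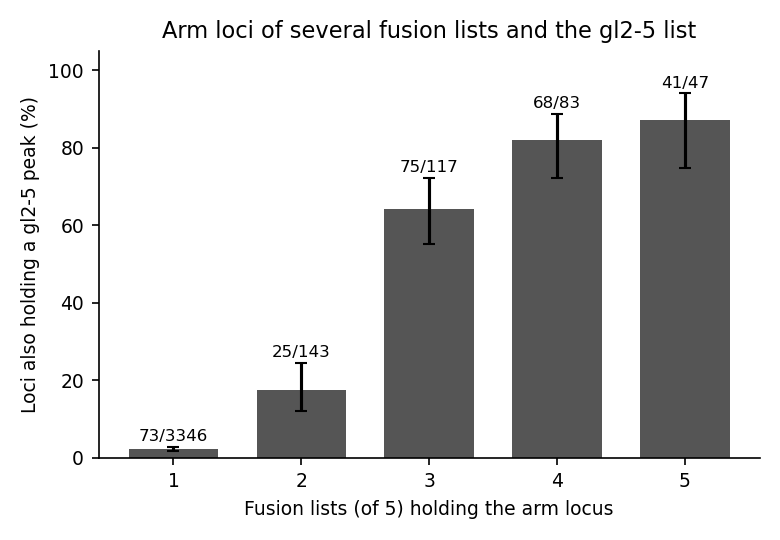
Share of arm loci that also hold a gl2-5 peak (vertical axis, %), by the number of fusion lists holding the locus (horizontal axis). Bars are shares, error bars 95% Wilson intervals, and labels give loci with a gl2-5 peak over all loci of the class. The share is 2.18% for 1 fusion list and 87.2% for all 5.

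The same count was made for each fusion list in turn, against the other 5 lists with gl2-5 among them, to set the control beside the fusions. At loci held by exactly 3 of the other 5 lists, the share also held was 81.0% in GL2, 37.7% in gl2_dSTART, 10.6% in gl2_dZip, 78% in gl2_Amo, 89.6% in gl2_E375G R392M and 64.1% in gl2-5. At loci held by all of the other 5 lists, it was 95.3% in GL2, 89.1% in gl2_dSTART, 41% in gl2_dZip, 100% in gl2_Amo (41 of 41 loci), 95.3% in gl2_E375G R392M and 87.2% in gl2-5. By this measure the gl2-5 list lay within the range of the fusion lists, below GL2, gl2_Amo and gl2_E375G R392M and above gl2_dZip at both steps. These counts are made on overlapping sets of loci and are a description.

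The fusion lists did not share the gl2-5 arm loci equally. The GL2 list held 212 of them, or 42.4% (38.1 to 46.8), and 391 of the other arm loci, or 11.3% (10.3 to 12.4), beside 15.3% of all arm loci. The gl2_E375G R392M list held 208, or 41.6% (37.4 to 46.0), and 16.1% (14.9 to 17.3) of the other arm loci, beside 19.3% of all. The gl2_dSTART list held 138, or 27.6% (23.9 to 31.7), and 29.4% of the other arm loci, beside 29.2% of all. The gl2_dZip list held 52, or 10.4% (8.02 to 13.4), and 9.18% of the other arm loci, beside 9.33% of all. The gl2_Amo list held 215, or 43.0% (38.7 to 47.4), and 41.9% of the other arm loci, beside 42.0% of all. These shares depend on the 218 gl2-5 arm loci in no fusion list, a kind that cannot occur among the other arm loci. Over the 282 in at least 1 fusion list, the share held was 75.2% (69.8 to 79.9) in GL2, 48.9% (43.2 to 54.7) in gl2_dSTART, 18.4% (14.3 to 23.4) in gl2_dZip, 76.2% (70.9 to 80.8) in gl2_Amo and 73.8% (68.3 to 78.5) in gl2_E375G R392M. On this footing all 5 lists held a larger share of the gl2-5 arm loci than of the other arm loci. In part this restates recurrence. Of the 3454 other arm loci, 3273 were in exactly 1 fusion list, against 73 of the 282.

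Cutting the lists to equal length moved the shares over all 500. When all lists were cut to a length of 681 peaks, taken by score, the gl2_dSTART list held 13.4% of the gl2-5 arm loci, beside 18.8% of all arm loci at that length. The gl2_Amo list then held 20.4%, beside 13.8% of all. The GL2 list held 36.2%, beside 31.5% of all, and the gl2_E375G R392M list 34.4%, beside 35.7%. At equal length the order of the lists over all 500 loci differed from that of the full lists. The cut counted peaks in the dropped regions too. The arm loci held still ranged from 157 in gl2_dZip to 489 in gl2_E375G R392M. These shares again include gl2-5 arm loci in no fusion list. Over the 217 in at least 1 fusion list at this length, every fusion list held a larger share than of the 868 other arm loci. The shares were 30.9% and 21.9% in gl2_dSTART and 79.3% and 36.5% in gl2_E375G R392M. Here too the larger shares restate in part that the gl2-5 arm loci were in more fusion lists each.

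As shares of each list's own arm loci, the gl2-5 arm loci made up 35.2% in GL2, 12.0% in gl2_dSTART, 14.1% in gl2_dZip, 12.9% in gl2_Amo and 27.3% in gl2_E375G R392M. The recurring loci had few combinations of lists. GL2, gl2_dSTART, gl2_Amo and gl2_E375G R392M together, without gl2_dZip, held 59 gl2-5 arm loci and 9 other arm loci. GL2, gl2_Amo and gl2_E375G R392M without the other two held 58 and 19, and all 5 lists held 41 and 6. The next combination, GL2 with gl2_E375G R392M, held 13 and 14. Counted without regard to gl2_dZip, 100 of the 115 arm loci in the 4 remaining fusion lists had a gl2-5 peak, or 87.0% (79.6 to 91.9). Loci of a single fusion list were the reverse case: gl2_Amo alone held 33 gl2-5 arm loci and 1336 other arm loci, gl2_dSTART alone 15 and 931, and gl2_dZip alone 1 and 265.

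How many fusion lists held a gl2-5 arm locus went with the number of tags in its gl2-5 peak. Of the 186 loci with 5 tags, 68.3% (61.3 to 74.5) were in no fusion list and 6.99% (4.13 to 11.6) in 3 or more. Of the 83 loci with 6 tags, 57.8% were in none and 21.7% in 3 or more, and of the 72 with 7 to 9 tags 34.7% and 38.9%. From 10 tags upward the picture was turned round: among the 159 such loci, 11.3% (7.28 to 17.2) were in none and 78.6% (71.6 to 84.3) in 3 or more. All 5 loci with 50 or more tags were in 4 or 5 fusion lists. Loci held by gl2-5 alone had a median of 5 tags, and the part of counting noise in these 218 was not tested.

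**Figure D2:**
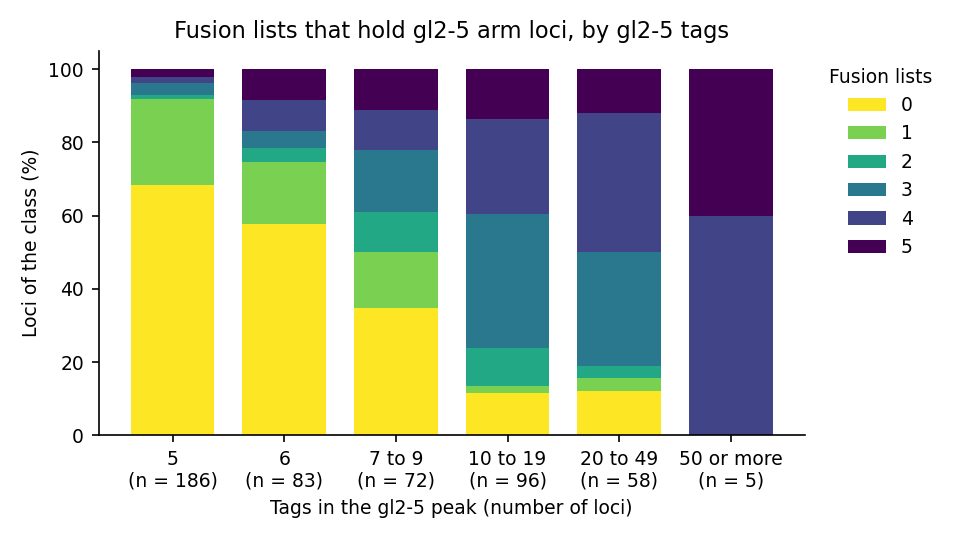
The 500 gl2-5 arm loci by tags in the gl2-5 peak (horizontal axis, with the number of loci) and by the number of fusion lists holding them (colours, 0 to 5), as shares of each class (vertical axis, %). The part in no fusion list is 68.3% at 5 tags and 12.1% at 20 to 49 tags.

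Fold did not sort the loci in the same way. Of the 49 loci with a gl2-5 fold under 10, 67.3% (53.4 to 78.8) were in 3 or more fusion lists, and of the 90 with a fold of 10 to 20, 62.2% (51.9 to 71.5). The shares were 30.9% (23.7 to 39.1) of 136 loci at a fold of 20 to 40 and 19.3% (14.5 to 25.2) of 207 loci at 40 to 80. At 80 or more, 13 of 18 loci were in 3 or more fusion lists, 9 of them in all 5, and none was without a fusion list. The class of 40 to 80 had a median of 5 tags, whereas that under 10 had a median of 20 tags.

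Loci held by all 5 fusion lists had higher gl2-5 folds, by the median, than those held by 3 or 4, but the classes of tags and fold held both. The 108 loci with 10 or more tags and a fold under 20 had a median of 19 tags and a median fold of 10.5. Of these, 80 were in 3 or more fusion lists, but 2 in all 5. The 51 loci with 10 or more tags and a fold of 20 or more had a median of 13 tags and a median fold of 34.7. Of these, 25 were in 3 or 4 fusion lists and 20 in all 5. A further 19 of the 41 loci in all 5 had under 10 tags, beside 40 loci in 3 or 4. Loci in all 5 fusion lists had a median gl2-5 fold of 47.4, against 14.3 for loci in 3 fusion lists and 17.5 for loci in 4.

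**Figure D3:**
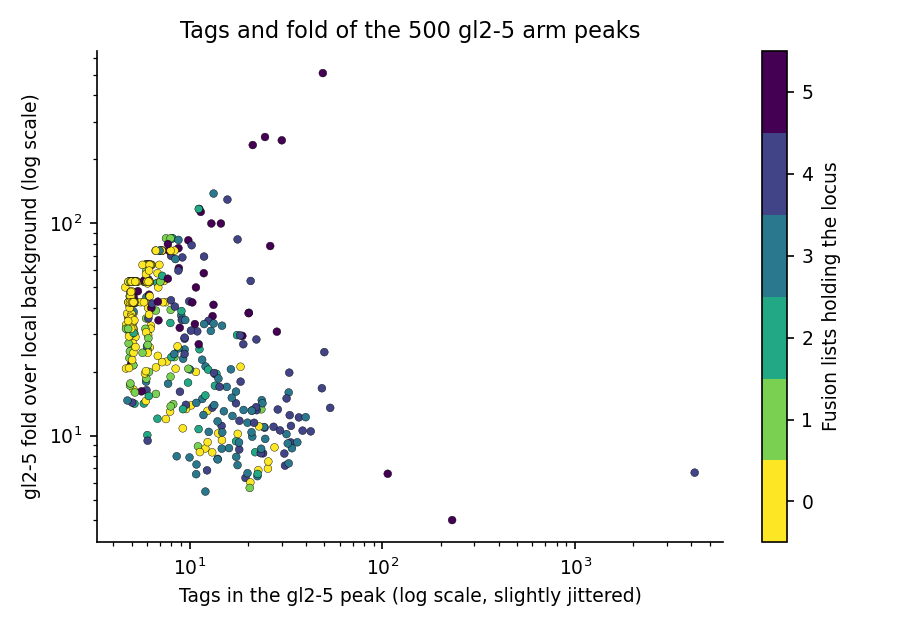
Tags (horizontal axis, log scale, slightly jittered) and fold over local background (vertical axis, log scale) of the gl2-5 peak at each of the 500 loci, coloured by the number of fusion lists holding the locus. Loci in no fusion list gather at 5 and 6 tags. At 10 or more tags and folds under 20 lie 44 of the 75 loci in 3 lists and 34 of the 68 in 4. Of the 18 loci with a fold of 80 or more, 9 are in all 5.

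Where a fusion list held a gl2-5 arm locus, its own peak there had more tags and a higher score, by the median, than its peaks elsewhere on the arms. The median tag count was 16 at gl2-5 arm loci and 6 elsewhere in GL2, 12 and 5 in gl2_dSTART, 20 and 11 in gl2_dZip, 25 and 6 in gl2_Amo, and 19 and 7 in gl2_E375G R392M. The median score was 124 and 79.7 in GL2, 101 and 77.0 in gl2_dSTART, 103 and 59.0 in gl2_dZip, 126 and 71.1 in gl2_Amo, and 143 and 89.2 in gl2_E375G R392M. The fold did not follow: its median was 13.9 at gl2-5 arm loci and 35.4 elsewhere in GL2, 24.8 and 35.1 in gl2_dSTART, 24.5 and 19.2 in gl2_dZip, 14 and 21.6 in gl2_Amo, and 14.2 and 34.2 in gl2_E375G R392M. In all lists but gl2_dZip, fusion peaks at the gl2-5 arm loci thus had a higher median tag count at a lower median fold. The median length of the peaks was slightly shorter at gl2-5 arm loci in each list, from 88 bp against 91 bp elsewhere in gl2_E375G R392M to 91 bp against 104 bp in GL2. Tags were also higher at gl2-5 arm loci when loci of 3 or more fusion lists were set against each other, with medians of 18 and 10 in GL2, 13 and 7 in gl2_dSTART, 20 and 16 in gl2_dZip, 28.5 and 15.5 in gl2_Amo, and 21 and 11 in gl2_E375G R392M.

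The highest-scoring fusion peaks on the arms were mostly at gl2-5 arm loci. Among the 50 highest scores of each list, 44 (88.0%, 76.2 to 94.4) were there in GL2, 37 (74.0%) in gl2_dSTART, 28 (56.0%) in gl2_dZip, 43 (86.0%) in gl2_Amo and 40 in gl2_E375G R392M. All 20 of the highest gl2_Amo scores were at gl2-5 arm loci. When the arm peaks of each list were split by score into 4 groups of equal size, the share in the highest group was 66.2% (58.4 to 73.3) in GL2, 25.3% in gl2_dSTART, 39.8% in gl2_dZip, 33.9% in gl2_Amo and 58.6% in gl2_E375G R392M. In the lowest group it was 19.9% (14.3 to 26.9) in GL2, 8.65% in gl2_dSTART, 5.43% in gl2_dZip, 3.37% in gl2_Amo, and in gl2_E375G R392M 22 of 191 peaks were there. The first peak without a gl2-5 peak came at rank 3 in GL2 and rank 4 in gl2_dZip, at the same place on chromosome 5. The nearest protein-coding gene within 1 kb of this place was AT5G50140. In gl2_dSTART the first such peak came at rank 14 (nearest gene AT1G79510). It came at rank 25 in gl2_Amo (AT5G24610) and rank 15 in gl2_E375G R392M (AT3G55470). These 4 genes were named after their ranks were seen.

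**Figure D4:**
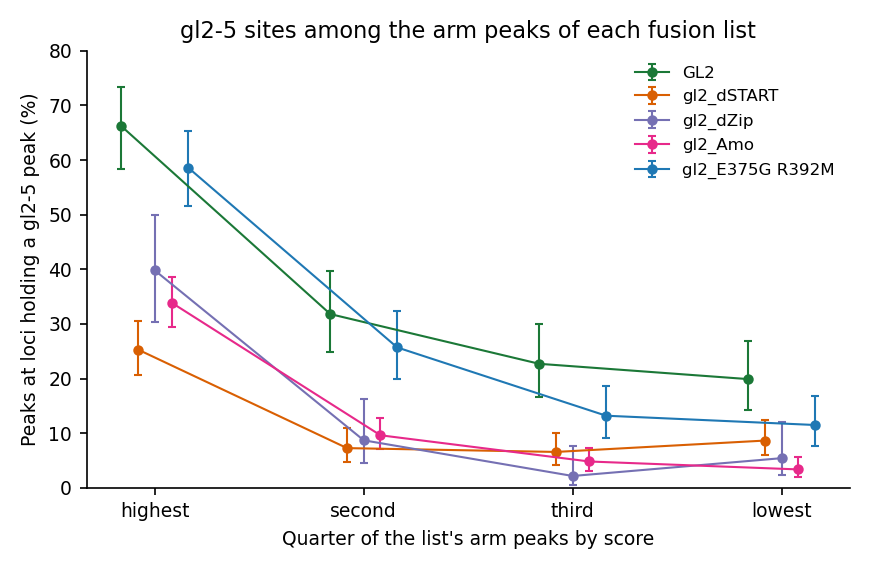
Share of the arm peaks of each fusion list that lie at loci holding a gl2-5 peak (vertical axis, %), in 4 groups of equal size by score, from highest to lowest (horizontal axis). Error bars are 95% Wilson intervals. In each list the highest group has the highest share, from 25.3% in gl2_dSTART to 66.2% in GL2.

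Peaks of the fusion lists and of gl2-5 coincided closely in position. The median distance between the summit of the fusion peak and that of the gl2-5 peak at the same locus was 3 bp in GL2, 4 bp in gl2_dSTART, 8 bp in gl2_dZip, 3 bp in gl2_Amo and 3 bp in gl2_E375G R392M. Summits lay within 10 bp of each other at 83.5% of the loci shared with GL2, 73.2% of those shared with gl2_dSTART, 59.6% (46.1 to 71.8) with gl2_dZip, 77.7% with gl2_Amo and 85.6% with gl2_E375G R392M. Close summits were not particular to gl2-5. Between pairs of fusion lists at the other arm loci, the median distance ran from 2.5 to 13 bp. The nearest pair was gl2_E375G R392M and GL2, with 96.6% within 10 bp. The farthest was gl2_E375G R392M and gl2_dZip, with 38.5%. The caller fitted fragments of 52 to 58 bp at a library size of 320 bp, and the effect of this on peak lengths and summits was not tested. Across the shared loci, tags of the fusion and the gl2-5 peaks ranked alike, with a Spearman's rho of 0.79 in GL2 (212 loci), 0.67 in gl2_dSTART (138), 0.56 in gl2_dZip (52), 0.68 in gl2_Amo (215) and 0.78 in gl2_E375G R392M (208). For fold over the same loci, rho ran from 0.35 in gl2_dZip to 0.77 in gl2_dSTART. Over the 41 loci in all 5 fusion lists, rho for tags ran from 0.32 in gl2_Amo to 0.76 in GL2. For fold at these 41 it ran from -0.08 in GL2 to 0.52 in gl2_E375G R392M. All are descriptions over sites that share the local sequence and the alignability of the place, and have no p-value. For the 218 loci in no fusion list, the median distance to the closest fusion peak was 8578 bp, and 7 had one within 500 bp.

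The 41 loci held by all 6 lists included the gl2-5 sites of highest score and fold. Membership in this set depends on gl2_dZip, none of whose 52 peaks at gl2-5 arm loci had an FDR of 5% or less (median 100%). With fusion peaks at an FDR of 5% or less no locus was in all 6 lists, and with peaks of a score of 100 or more 22 were. The highest gl2-5 score and fold belonged to a locus in AT3G23460 (chromosome 3, 8414073 to 8414178). It had 54 tags in GL2, 26 in gl2_dSTART, 43 in gl2_dZip, 29 in gl2_Amo, 54 in gl2_E375G R392M and 48 in gl2-5. The fold was 28.64 in GL2, 182.53 in gl2_dSTART, 67.81 in gl2_dZip, 34.33 in gl2_Amo, 368.89 in gl2_E375G R392M and 509.6 in gl2-5. The control's tag count here lay within the range of the fusion lists, although it had the fewest kept tags in all.

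The next folds in gl2-5 were at CRN, which encodes CORYNE, a receptor-like pseudokinase of the CLAVATA pathway of stem cell control, at AT5G47540, and at UGT73C2, a UDP-glucosyltransferase gene. At CRN (chromosome 5, 4254751 to 4254875) there were 26 tags in GL2, 10 in gl2_dSTART, 20 in gl2_dZip, 10 in gl2_Amo, 32 in gl2_E375G R392M and 24 in gl2-5, with a fold of 64.48 in GL2 and 254.8 in gl2-5. At AT5G47540 (chromosome 5, 19283018 to 19283175) the fold was 58.40 in GL2, 150.13 in gl2_dSTART, 43.62 in gl2_dZip, 56.17 in gl2_Amo, 232.27 in gl2_E375G R392M and 245.88 in gl2-5. At UGT73C2 (chromosome 2, 15414542 to 15414679) gl2-5 had the most tags of any list, 22, against 19 in GL2, 8 in gl2_dSTART, 11 in gl2_dZip, 9 in gl2_Amo and 18 in gl2_E375G R392M. At these 4 loci the fold in gl2_E375G R392M was the nearest in number to that of gl2-5. Each fold rests on the list's own input and depth, so this is no measure of likeness between genotypes. Kept ChIP tags over kept input tags were 0.179 in gl2-5, 0.365 in gl2_E375G R392M and 1.29 in gl2_dZip.

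Other loci of all 6 lists had higher fusion counts. At CML11, a calmodulin-like gene (chromosome 3, 8125634 to 8125923), there were 18 tags in GL2, 33 in gl2_dSTART, 48 in gl2_dZip, 49 in gl2_Amo, 34 in gl2_E375G R392M and 11 in gl2-5. At HSF1, a heat shock factor gene (chromosome 4, 9870023 to 9870110), the counts were 15, 21, 29, 38, 26 and 11 in the same order of lists. At SQN, which encodes a cyclophilin (chromosome 2, 6880777 to 6880907), they were 39, 18, 27, 40, 27 and 10. Every fusion list had more tags than gl2-5 at these 3 loci, and none of the counts is scaled to the depth of its list.

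MYB23, a MYB factor gene of trichome development, was the only gene of the trichome list with a gl2-5 arm locus (chromosome 5, 16127713 to 16127863). There were 20 tags in GL2, 20 in gl2_dSTART, 20 in gl2_dZip, 35 in gl2_Amo, 20 in gl2_E375G R392M and 6 in gl2-5. The gl2-5 count has a 95% Poisson interval of 2.2 to 13.1. Over all 41 loci the median count was 18 tags in GL2, 17 in gl2_dSTART and 21 in gl2_dZip. It was 35 in gl2_Amo, 22 in gl2_E375G R392M and 10 in gl2-5. The median fold was 80 in GL2, 55.8 in gl2_dSTART and 26.5 in gl2_dZip. In gl2_Amo it was 52.7, in gl2_E375G R392M 46.2 and in gl2-5 47.4. Counts are not scaled to depth, and each fold rests on the list's own input, so the medians do not rank the lists.

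**Figure D5:**
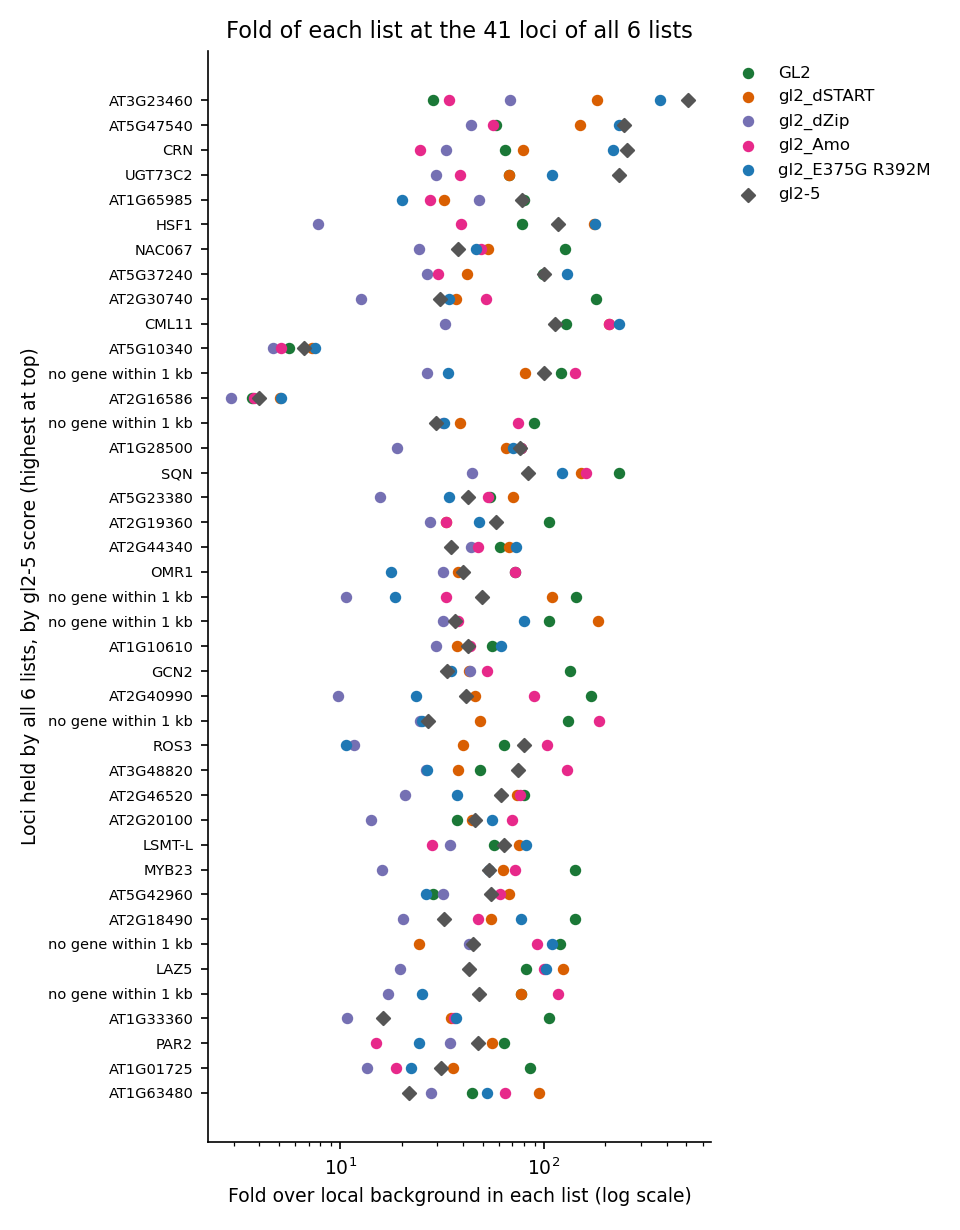
Fold over local background (horizontal axis, log scale) in each list at the 41 loci held by all 6 lists, ordered by gl2-5 score with the highest at the top (vertical axis, nearest protein-coding gene within 1 kb). Circles are the fusion lists and diamonds gl2-5. At the 4 loci with the highest gl2-5 folds the diamond lies farthest right, at 233.56 to 509.6, and at most loci below them it lies among the circles. Each fold rests on the list's own input and depth.

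The summit lay in a protein-coding gene at 27 of the 41 loci, beside one within 1 kb at 7, and 7 had none within 1 kb. The genes named by function include NAC067, a NAC transcription factor, OMR1, a threonine deaminase, and GCN2, the kinase of the translation factor eIF2. They also include ROS3, an RNA-binding protein of DNA demethylation, LAZ5, a disease resistance protein, PAR2, a factor of the shade response, and LSMT-L, a lysine methyltransferase-like protein. The loci of all 6 lists near genes without a name were at AT1G65985, AT5G37240, AT2G30740, AT5G10340, AT2G16586, AT1G28500, AT5G23380, AT2G19360, AT2G44340, AT1G10610, AT2G40990, AT3G48820, AT2G46520, AT2G20100, AT5G42960, AT2G18490, AT1G33360, AT1G01725 and AT1G63480. The gl2-5 peaks at AT2G16586 and AT5G10340 stood apart from the rest, with 224 and 102 tags but folds of 4.00 and 6.61. In GL2 the folds there were 3.68 and 5.59, also the lowest of the 41.

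The loci richest in tags outside this set were in 3 or 4 fusion lists, most of them without gl2_dZip. The longest gl2-5 arm locus spanned 9541 bp at the end of chromosome 2 (992 to 10532), over the ribosomal RNA genes AT2G01010 and AT2G01020, MIR5642b and AT2G01023. It had 6092 tags in GL2, 4775 in gl2_dSTART, 7579 in gl2_Amo, 4981 in gl2_E375G R392M and 3951 in gl2-5, with folds of 3.8, 8.15, 5.49, 5.53 and 6.69. This 1 locus held 3951 of the 9273 gl2-5 tags in all 500 loci. The tip of this chromosome borders a nucleolus organizer region, an array of ribosomal RNA genes, and reads from repeated copies can be placed on one copy. At AT1G20290 (chromosome 1, 7024959 to 7025347) there were 94 tags in GL2, 101 in gl2_dZip, 184 in gl2_Amo, 126 in gl2_E375G R392M and 50 in gl2-5, and no gl2_dSTART peak. After the ribosomal RNA locus the longest were those at AT2G16586 with 641 bp, AT1G20290 with 389 bp, AT2G19360 with 334 bp and AT5G10340 with 317 bp. Counts of 40 or more gl2-5 tags were also found at AT3G27510, AT5G61520, AT5G49525, a locus with no gene within 1 kb (chromosome 2, 11839569 to 11839685) and SQE2, a squalene epoxidase gene. These 5 had gl2-5 folds of 10.47 to 16.71, were in the GL2, gl2_Amo and gl2_E375G R392M lists and were absent from gl2_dZip.

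The 10 gl2-5 arm loci of highest score were all in 3 or more fusion lists, 5 of them in all 5, and so were the 10 with most tags, 3 of them in all 5. Of the 10 with the highest fold, 9 were in 3 or more and 7 in all 5. The exception, AT4G33160 (chromosome 4, 15993492 to 15993573), had 8 tags in GL2, 8 in gl2_E375G R392M and 11 in gl2-5, with folds of 56.70, 54.65 and 116.78. SECA2, an ATPase gene of protein translocation, and ALDH22A1, an aldehyde dehydrogenase gene, had gl2-5 folds of 138.02 and 129.28, and both were in GL2, gl2_dSTART and gl2_E375G R392M. These 2 loci, with those at AT1G20290, AT1G65985, AT2G01023, AT3G23460 and AT3G27510, were the 7 with a gl2-5 FDR of 5% or less.

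The loci held by gl2-5 alone had few tags, with a median of 5, but not low folds. Their median fold was 42.5, against 31.9 for loci in 1 fusion list, 14.3 in 3, 17.5 in 4 and 47.4 in 5. Their median score lay above that of loci in 1 fusion list and below those of loci in 2 or more. Of the loci held by gl2-5 alone, 18 had 10 or more tags, among them a place on chromosome 2 (9484727 to 9484963) with 27. The highest score among these 218 was 192.95, at AT1G61170 (chromosome 1, 22549978 to 22550042), from 7 tags and a fold of 74.32. The next were at a place with no gene within 1 kb (chromosome 1, 5633748 to 5633814, 8 tags), AT1G20750, AT1G16690, SD1-29, a receptor kinase gene, AT4G32620, and GH9B6, a glycosyl hydrolase gene, with 6 or 7 tags each. The places from rank 8 on were tied at a score of 156.51 and 6 tags. They lay at EIF4B2, a translation initiation factor gene, at UMAMIT13, at ALDH3I1, at ATR, a kinase gene of the DNA damage response, and at 2 places without a gene.

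The gl2-5 arm loci were near protein-coding genes about as often as the other arm loci were. A protein-coding gene lay within 1 kb of 411, or 82.2% (78.6 to 85.3), and of 78.4% (77.0 to 79.7) of the other arm loci. A pseudogene lay within 1 kb of 7.0% (5.08 to 9.58) of the gl2-5 arm loci and of 13.2% (12.1 to 14.4) of the other arm loci. Position within genes differed between the kinds of gl2-5 arm loci. The summit fell in a protein-coding gene at 77.1% (71.0 to 82.1) of the loci in no fusion list, at 52.0% (42.3 to 61.7) of those in 1 or 2, and at 40.2% (33.4 to 47.4) of those in 3 or more. Gene spans took up 62.3% of the arm sequence, so summits of gl2-5 alone lay in genes more often, and recurring ones less often, than that share. Among the recurring ones, those in all 5 fusion lists were in genes at 65.9% (50.5 to 78.4). At the other arm loci the summit was in a gene at 55.6%.

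Of the genes in the lists drawn up for epidermal pathways, 1 lay near a gl2-5 arm locus. All 500 loci together lay within 1 kb of 575 protein-coding genes, 2.19% of the 26220 on the arms. The other arm loci, a larger set of 3454, lay near 13.1%, and the 2 shares are not scaled to the number of loci. Of 12 genes of trichome and hair cell patterning, MYB23 was near a gl2-5 arm locus, and 3 were near other arm loci. None of 16 class IV homeodomain leucine zipper genes was, the clusters at GL2 and PDF2 having been dropped by the selection, and 3 were near other arm loci. None of 8 root hair genes, 6 cuticle genes, 6 anthocyanin genes or 14 genes of abundant seedling transcripts, such as those of Rubisco and the light-harvesting proteins, was near one. Beside a share of 2.19% over all arm genes, counts of 0 and 1 from lists this short show no difference from genes in general, nor the lack of one.

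Few of the loci lay near genes for small RNAs. Transfer RNA genes lay within 1 kb of 4 of the 500 loci, 0.8% (0.312 to 2.04), and of 1.71% (1.33 to 2.2) of the other arm loci. The 4 were near ATRPAC42, RTNLB13, AT3G06330 and AT5G03710, of which the loci at RTNLB13 (31 gl2-5 tags) and AT5G03710 (21) were in 4 fusion lists. MicroRNA genes were near 4 of the 500, 0.8% (0.312 to 2.04), and near 0.579% (0.375 to 0.893) of the other arm loci. The 4 were MIR5642b in the ribosomal RNA locus, MIR169e beside AT1G53690, MIR164a beside PHR2 and MIR3434 beside alpha-ADR. MIR164a, which limits the CUC boundary genes, was near a locus of gl2-5 alone with 5 tags. A single locus, near AT2G46190, lay beside small nucleolar RNA genes. Long non-coding RNA genes, not named singly, lay within 1 kb of 41 loci, 8.2% (6.1 to 10.9), and of 7.27% of the other arm loci. Non-coding RNA genes of the remaining classes lay near AT2G46190 and in the ribosomal RNA locus, near AT1G11170, SCAMP2, AT3G54363, AT1G15530, AT2G47210, AT3G16930, UGT76E11, AT3G49000 and DAG2, and near 4 loci without a protein-coding gene within 1 kb.

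The loci were spread over all arms. There were 128 on chromosome 1, 95 on chromosome 2, 99 on chromosome 3, 66 on chromosome 4 and 112 on chromosome 5, which is between 9.82% (7.79 to 12.3) of the arm loci on chromosome 4 and 14% (11.6 to 16.8) on chromosome 2. Loci in 3 or more fusion lists numbered 36, 40, 38, 25 and 45 on chromosomes 1 to 5, and loci in no fusion list 63, 41, 40, 26 and 48. The median distance to the nearest other gl2-5 arm locus was 67404 bp, and 26 had one within 5000 bp. A pair of loci lay near the same gene at AT2G19360, at AT4G32620 and at AT5G07310. At AT2G19360 the pair was in 5 and 4 fusion lists, and at AT4G32620 neither was in any. At AT5G07310 1 of the pair was in 4 fusion lists and the other in none.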

How the data were processed

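Per the file headers, the authors called peaks with MACS 1.4.2 on 1 merged ChIP alignment per genotype against its input, at a p cutoff of 1e-05. Bowtie2 2.2.3, bcl2fastq, the TAIR10 build and MACS2 1.4.2 are named in the submitters' processing notes. Of 4872999 gl2-5 ChIP tags, 227071 were kept, or 4.66%. The kept share was 1.79% in GL2, 1.24% in gl2_dSTART, 2.3% in gl2_dZip, 0.765% in gl2_Amo and 1.27% in gl2_E375G R392M. The deposited tag count is the number of whole tags in a peak, the score deposited with it is a p-value turned into minus log10 units and multiplied by 10, the deposited fold is a ratio to the local background, and the deposited FDR is a percent. Tag counts are not scaled to library size. The caller fitted fragment sizes of 52 to 58 bp at a tag length of 51 bp, under the library size of 320 bp in the labels, and the effect on the lists was not tested.

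Dropped regions were 13 to 17 Mb on chromosome 1, 2 to 6 Mb on chromosome 2, 11.5 to 16 Mb on chromosome 3, 2.5 to 5.5 Mb on chromosome 4 and 10 to 14 Mb on chromosome 5. Overlaps, counts, medians and intervals were computed in Python 3.11.15 with numpy 2.4.6, pandas 2.3.3 and scipy 1.17.1, and figures drawn with matplotlib 3.10.9. The merging was tested on simulated peaks. Gene names came from a RefSeq gene table of the TAIR10.1 assembly, in which all 63 genes of the 6 gene lists were found. A locus takes the protein-coding gene its gl2-5 summit falls in, or else the nearest within 1 kb. Strand, exons and sequence were not used here.

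Genes were named where the locus was in all 6 lists, among the 10 of highest gl2-5 score, fold or tags, among the 5 longest, at an FDR of 5% or less, among the 10 of highest score held by gl2-5 alone, or near a gene of the lists or a non-coding RNA gene other than a long one. The loci and gene lists were chosen with earlier results of these data known. Alternatives were score and FDR limits, other overlap rules, lists of equal length, wider dropped regions and other gene distances. The organelle peaks were left out.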

Additional observations from a re-analysis of the deposited data

How the results depend on the processing

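Of 59 values recomputed under other settings, 41 stayed within their interval or within 1.5 times the count, and 18 moved. With peaks of a score of 100 or more, 229 gl2-5 arm loci remained, 22 of them held by all 5 fusion lists and 100 by none. The share held was then 22.3% for gl2_dSTART and 48.0% for gl2_E375G R392M. With every list at its 681 highest-scoring peaks, the share held was 36.2% for GL2, 13.4% for gl2_dSTART, 20.4% for gl2_Amo and 34.4% for gl2_E375G R392M, fewer fusion peaks being used. The number of gl2-5 arm loci in no fusion list then rose from 218 to 283. This rise counts as kept only because counts were allowed 1.5 times, a wider limit than that of the shares. With fusion peaks limited to an FDR of 5% or less, the share was 28.8% for GL2 and 0% for gl2_dZip, which had no such peak on the arms, and the count held by all 5 was then 0. The share of loci with a protein-coding gene within 1 kb was 85.5% with the dropped regions widened by 1 Mb, 63.2% for overlapping genes and 90.2% within 2 kb. The share of arm loci in 3 or more fusion lists that hold a gl2-5 peak, whose alternatives, like the shares of all arm loci at equal length, were chosen after seeing the data, was 65.3% at a score of 100 or more, 83.1% at equal length and 82.5% at an FDR of 5% or less, against 74.5%. Requiring that peaks share 0.5 of the shorter one's length, or joining peaks within 500 bp, changed no value beyond these limits.

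No paired analysis was possible because the replicate libraries of each genotype had been merged before peaks were called, so that none was left out in turn. Most gl2-5 peaks rest on 5 to 12 tags, so the 218 loci of gl2-5 alone, and the absence of a locus from any list, are limited by depth. Intervals treat loci as independent and leave out the spread between plants, cultures and libraries, which is unknown here.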

Other observations

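Peaks outside the 5 nuclear chromosomes, all on organelle sequence, numbered 2 for gl2_dSTART, 4 for gl2_E375G R392M and 2 for gl2-5, and 0 for GL2, gl2_dZip and gl2_Amo. They entered no comparison.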
